A study of Mus musculus with 15 samples.

Results

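The tumour necrosis factor (TNF) superfamily of ligands and receptors was followed across the 5 populations of mononuclear phagocytes that were sorted from the lamina propria (LP) of mouse small intestine. Members were taken by symbol: every gene named *Tnfsf* or *Tnfrsf* with a number, together with *Tnf*, *Lta*, *Ltb*, *Ltbr*, *Cd40*, *Cd27*, *Cd70*, *Fas*, *Fasl* and *Eda2r*. Of 41 such genes on the array, 39 had a probeset of their own among 19938 genes, 14 of them ligands and 25 receptors. *Tnfsf12* and *Tnfsf13* were represented only by a probeset of several genes and have no value. DCs, sorted as CD64-, were split into the double-positive CD103+CD11b+ subset, the CD103+CD11b- subset, the CD103-CD11b+ subset and the double-negative CD103-CD11b- subset, and CD64+ macrophages (mφ) were taken beside them, with 3 arrays per population. All came from WT C57BL/6 mice in the steady state, with no deletion and no treatment in any group, and the study used young adult mice of both sexes. The study calls its arrays biological replicates, but the number of mice behind an array is not given, so p-values measure the spread between these arrays. RNA was amplified and hybridized to whole-transcript arrays, and a value is the log2 signal of 1 gene on 1 array.

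TNF superfamily ligands are made mostly as trimers on the cell surface, from which some are shed, and bind receptors that cluster around them. Receptors with a death domain can start apoptosis or necroptosis, and the others recruit TRAF adaptors that activate NF-κB. In the gut the family is known for inflammation driven by TNF, for the lymphotoxin that builds lymphoid tissue and supports IgA, for BAFF and APRIL, which keep B cells and plasma cells alive, and for the costimulatory pairs through which DCs and T cells signal to each other.

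To show regulatory sequence beside the values, 4 promoters are printed: *Ltb* and *Tnf*, next to each other on chromosome 17 and opposite in their differences in CD103-CD11b- DCs, *Tnfrsf17*, which shared the direction of *Ltb* there, and *Tnfrsf1b*, which was higher in both CD11b+ subsets. Each is the 250 bases before the gene's start, 5′ to 3′ on the gene's strand, from RefSeq on GRCm38.p6. Capitals mark matches on either strand to GGGNNTTNC, the first 9 letters of an NF-κB motif, to GAGGAA, the core bound by the ETS factor PU.1, and to TATAAA, the TATA box. In *Tnfrsf17* the last 2 of these lie side by side.
Ltb (chr17:35194257-35194506, + strand): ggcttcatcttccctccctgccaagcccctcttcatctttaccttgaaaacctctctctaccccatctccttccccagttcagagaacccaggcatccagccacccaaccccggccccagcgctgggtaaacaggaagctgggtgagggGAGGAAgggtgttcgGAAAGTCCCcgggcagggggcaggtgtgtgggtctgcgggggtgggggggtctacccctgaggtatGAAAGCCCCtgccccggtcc
Tnf (chr17:35202008-35202257, - strand): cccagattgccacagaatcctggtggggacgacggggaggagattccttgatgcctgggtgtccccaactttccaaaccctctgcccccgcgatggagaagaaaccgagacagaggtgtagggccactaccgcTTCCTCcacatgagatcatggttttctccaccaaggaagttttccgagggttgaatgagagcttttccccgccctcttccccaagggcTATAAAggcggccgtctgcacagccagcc
Tnfrsf17 (chr16:11313559-11313808, + strand): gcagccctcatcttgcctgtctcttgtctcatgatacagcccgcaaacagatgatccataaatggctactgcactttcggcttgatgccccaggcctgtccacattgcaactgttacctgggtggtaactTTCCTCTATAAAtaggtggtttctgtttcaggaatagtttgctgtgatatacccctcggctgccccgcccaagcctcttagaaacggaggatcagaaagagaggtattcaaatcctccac
Tnfrsf1b (chr4:145246871-145247120, - strand): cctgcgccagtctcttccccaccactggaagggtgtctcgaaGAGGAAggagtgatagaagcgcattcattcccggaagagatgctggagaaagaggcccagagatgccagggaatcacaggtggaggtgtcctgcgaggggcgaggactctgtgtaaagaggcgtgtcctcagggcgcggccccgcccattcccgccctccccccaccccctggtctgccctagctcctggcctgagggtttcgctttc
*Ltb* held GGGNNTTNC on the opposite strand at -86 to -78 and at -20 to -12, and GAGGAA at -101 to -96, where -1 is the base before the start. *Tnf* held TATAAA at -29 to -24 and GAGGAA at -117 to -112. Of the 12 members that passed in some comparison, 11 had a promoter in the table. GGGNNTTNC was in 1 of these 11 (*Ltb*) and in 14.7% of 27025 genes, GAGGAA in 7 of 11 and in 25.9% of genes, and TATAAA in 3 of 11 and in 14.3% of genes. A match is a description of the letters and not a bound site, and other forms of these motifs were not searched.

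The sorted cells carried the markers of their labels. *Itgae*, which encodes CD103, averaged 10.38 and 10.90 in the CD103+ subsets against 7.84 and 8.76 in the CD103- subsets, and *Itgam*, which encodes CD11b, 9.56 and 9.53 in the CD11b+ subsets against 4.93 and 6.64 in the CD11b- subsets. *Fcgr1*, which encodes CD64, averaged 8.92 in mφ and at most 4.80 in DCs. Arrays of 1 population correlated at 0.9775 to 0.9946 across genes, lowest within mφ. A list of 20 gut epithelium markers averaged 8.49 on the second mφ array, against 6.65 and 6.63 on the other mφ arrays and 7.07 to 8.46 on DC arrays. Its Paneth cell gene *Defa24* was at 9.58 there, against 3.83 and 3.66 on the other mφ arrays and 8.15 to 9.52 on DC arrays. A list of 8 pancreatic acinar markers ranged from 4.69 to 8.66, with the highest averages on the second CD103+CD11b- array, at 8.66 against 5.10 and 4.69 beside it, and the second CD103-CD11b- array, at 8.38 against 5.26 and 6.12. A list of 7 plasma cell markers averaged 9.17 on this mφ array, against 8.25 and 7.99 on the others, and 9.96 on the second CD103-CD11b- array, against 9.16 and 9.21 there. Without the second CD103+CD11b- array, 6 members passed in the first and 5 in the second comparison given below, against 5 in each with all arrays. In sorted populations, fewer cells that express a gene and less RNA per cell cannot be told apart.

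Of the 39 members, 12 passed the limits on p and size in some comparison, and 10 had no population mean above background. The signal that 95% of 1027 olfactory receptor genes stayed under (4.30) was taken as background. By population means, 25 members were over it in all 5 populations, 4 in some and 10 in none. Those in none were the ligands *Cd70*, *Fasl*, *Lta*, *Tnfsf4* and *Tnfsf14* and the receptors *Eda2r*, *Tnfrsf8*, *Tnfrsf10b*, *Tnfrsf11b* and *Tnfrsf25*, with population means from 3.22 to 4.27. A gene was counted as passing at a Benjamini-Hochberg adjusted p under 0.01 over all genes, by limma, with a log2 difference over 1. In this way 6 ligands and 6 receptors passed in at least 1 of 5 comparisons, which is 12 of 39 members, where 8.36% of all genes did. Their population means spanned 1.25 to 3.18, and 27 members passed in none, with a median span of 0.27.

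**Figure D1:**
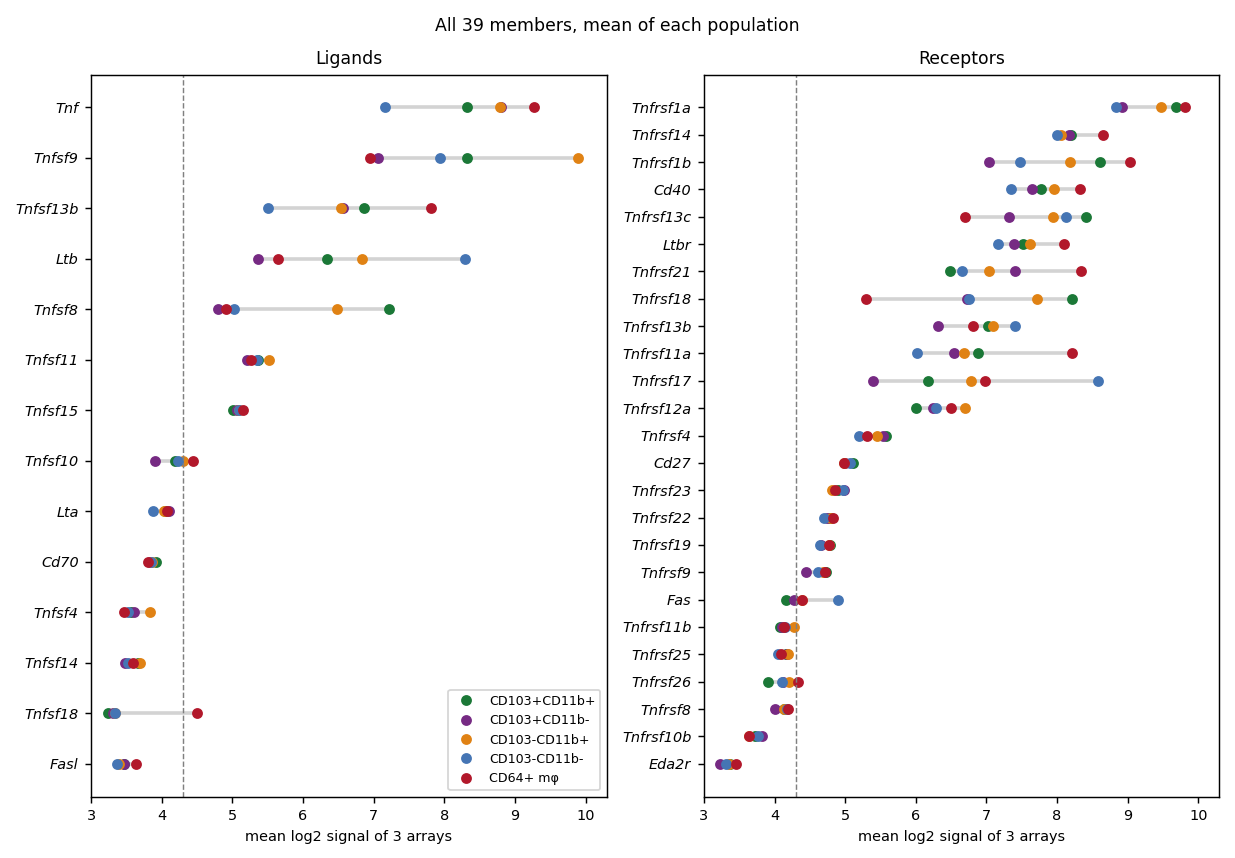
Mean log2 signal over 3 arrays of each of the 39 members in the 5 populations, ligands on the left and receptors on the right, with the background of 4.30 as a dashed line. Genes are ordered by their mean, and only dots within 1 row can be compared, since probes of different genes differ. *Tnfrsf17*, *Ltb* and *Tnfsf9* have wide rows, and the lower part of each panel holds genes at or under background in most populations.

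The first question was which members set the CD11b+ subsets apart from CD103+CD11b- DCs, which are of the cDC1 type. CD103+CD11b+ DCs had higher signals for 5 members: the ligands *Tnfsf8* and *Tnfsf9* and the receptors *Tnfrsf1b*, *Tnfrsf13c* and *Tnfrsf18*. None was lower. That is 5 of 39 members, where 1.95% of all genes passed as higher and 1.32% as lower. CD103-CD11b+ DCs also had 5 higher and none lower, namely *Ltb*, *Tnfsf8*, *Tnfsf9*, *Tnfrsf1b* and *Tnfrsf17*, against 2.02% and 1.3% of all genes. Both comparisons rest on the same 3 CD103+CD11b- arrays. The median difference of the 39 members was 0.12 and 0.14 on the log2 scale, and 0.03 and 0.04 over all genes. The genes *Tnfsf8*, *Tnfrsf18*, *Tnfrsf1b*, *Ltb* and *Tnfsf9* also stand in lists that the study chose on these arrays, so the counts are not independent of those lists.

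*Tnfsf8* encodes CD30 ligand, which binds CD30 on activated lymphocytes. Its log2 signals were 7.28, 7.21 and 7.15 on the CD103+CD11b+ arrays, 4.72, 4.93 and 4.74 on the CD103+CD11b- arrays, and 6.65, 6.21 and 6.56 on the CD103-CD11b+ arrays. They were 5.35, 4.63 and 5.06 on the CD103-CD11b- arrays and 5.11, 4.81 and 4.81 on the mφ arrays. The 3 populations of the first comparisons did not overlap, and CD103+CD11b- DCs overlapped with mφ and CD103-CD11b- DCs at the low end. *Tnfsf8* was 5.34-fold higher in CD103+CD11b+ than in CD103+CD11b- DCs (log2 difference 2.42 ± 0.12 SE, adjusted p = 1.71e-07, limma). In CD103-CD11b+ DCs it was 3.20-fold higher (1.68 ± 0.12, adjusted p = 2.2e-06). Between the CD11b+ subsets the difference was 0.74, with an adjusted p of 0.00592 but under the limit on size. Against the mean of the 4 DC subsets, mφ were at -0.97 ± 0.13 (adjusted p = 3.01e-05), short of the limit. That difference was -1.01 without CD103-CD11b- replicate 2 and -1.06 without mφ replicate 1, and passed in both cases.

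*Tnfsf9* encodes 4-1BB ligand, which costimulates T cells through 4-1BB, the product of *Tnfrsf9*. The log2 signal was 8.09, 8.66 and 8.22 on the CD103+CD11b+ arrays, 7.32, 7.16 and 6.70 on the CD103+CD11b- arrays, and 10.06, 9.97 and 9.63 on the CD103-CD11b+ arrays. In the remaining populations it was 8.39, 7.84 and 7.59 on the CD103-CD11b- arrays and 6.80, 7.70 and 6.33 on the mφ arrays. CD103-CD11b+ DCs were above every other array, and CD103+CD11b+ DCs lay between them and CD103+CD11b- DCs without overlap. The gene was 7.10-fold higher in CD103-CD11b+ than in CD103+CD11b- DCs (2.83 ± 0.19, adjusted p = 1.59e-06), and 2.40-fold higher in CD103+CD11b+ DCs (1.26 ± 0.19, adjusted p = 0.000772). Between the CD11b+ subsets, *Tnfsf9* was the 1 member that passed, at 2.96-fold lower in CD103+CD11b+ DCs (-1.57 ± 0.19, adjusted p = 0.00142). There 0.231% of all genes passed as higher and 0.306% as lower, and the median difference was -0.02 over members and -0.01 over all genes. In a fit over all 15 arrays, where the spread is shared with the other populations, the adjusted p of this difference was 0.0119, and that of CD103+CD11b+ against CD103+CD11b- DCs 0.0106, so neither passed. Genes of mφ moved in the same comparisons: of 10 mφ markers, 6 passed as higher in CD103-CD11b+ than in CD103+CD11b- DCs and 5 as lower in CD103+CD11b+ than in CD103-CD11b+ DCs. *Adgre1*, of the same list, was at 7.50 to 8.09 on CD103+CD11b+ arrays and 6.23 to 7.25 on CD103-CD11b+ arrays. It went the other way there, without overlap, but did not pass (adjusted p = 0.0383, limma). The list averaged 7.04 to 7.48 on CD103-CD11b+ arrays, 5.90 to 6.23 on CD103+CD11b+ arrays, 5.28 to 5.45 on CD103+CD11b- arrays and 10.34 to 10.48 in mφ, with *Cd163* and *Mertk* under background in all 3 of these subsets. *Tnfsf9* was lower on every mφ array than on every CD103-CD11b+ array, and the part of mφ in its DC signals was not tested. The gut epithelium list averaged 7.07 to 7.33 on CD103-CD11b+ arrays, 7.77 to 8.46 on CD103+CD11b+ arrays and 7.76 to 8.13 on CD103+CD11b- arrays. Of its 20 genes 2 passed as lower in CD103-CD11b+ than in CD103+CD11b- DCs (*Anpep* and *Lgals4*), with a median difference of -0.84, and 1 as higher in CD103+CD11b+ than in CD103-CD11b+ DCs (*Cdh1*), with a median of 0.89. The study counts *Cdh1* and *Epcam*, both on this list, among its genes of CD103+CD11b+ DCs. The part of epithelium in these results was not tested either. *Tnfrsf9*, its receptor, had array values from 4.23 to 4.91 and passed nowhere.

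Among receptors, *Tnfrsf1b*, *Tnfrsf13c* and *Tnfrsf18* were higher in CD103+CD11b+ DCs. *Tnfrsf1b* encodes TNFR2, which has no death domain and binds membrane TNF. On the log2 scale it measured 8.82, 8.46 and 8.54 on the CD103+CD11b+ arrays, 7.29, 6.98 and 6.82 on the CD103+CD11b- arrays, and 8.23, 8.26 and 8.04 on the CD103-CD11b+ arrays. The other arrays gave 7.81, 7.39 and 7.24 on the CD103-CD11b- arrays and 9.21, 8.72 and 9.15 on the mφ arrays. Every array of both CD11b+ subsets was above every CD103+CD11b- array, by 2.98-fold on average in CD103+CD11b+ DCs (1.58 ± 0.13, adjusted p = 1.19e-05) and 2.21-fold in CD103-CD11b+ DCs (1.15 ± 0.13, adjusted p = 0.000142). *Tnfrsf18* encodes GITR, a costimulatory receptor best known from Treg cells. Single arrays gave log2 signals of 8.31, 8.24 and 8.11 on the CD103+CD11b+ arrays, 6.66, 6.70 and 6.84 on the CD103+CD11b- arrays, and 7.61, 7.57 and 7.96 on the CD103-CD11b+ arrays. They were 6.28, 6.82 and 7.17 on the CD103-CD11b- arrays and 5.51, 5.71 and 4.68 on the mφ arrays. CD103+CD11b+ DCs were above all other arrays and mφ below all others. The difference from CD103+CD11b- DCs was 1.49 ± 0.11 in CD103+CD11b+ DCs (2.80-fold, adjusted p = 4.59e-06) and 0.98 ± 0.11 in CD103-CD11b+ DCs (1.97-fold, adjusted p = 0.000116), the second just short of the limit on size. It passed without CD103-CD11b+ replicate 2, at 1.05, without CD103-CD11b+ replicate 1, at 1.03, and without CD103+CD11b- replicate 3, at 1.03.

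*Tnfrsf13c* encodes the BAFF receptor, known as a survival receptor of B cells. Its log2 signals were 8.38, 8.47 and 8.39 on the CD103+CD11b+ arrays, 7.21, 7.55 and 7.21 on the CD103+CD11b- arrays, and 7.82, 8.11 and 7.91 on the CD103-CD11b+ arrays. In the remaining populations it was 8.23, 8.36 and 7.81 on the CD103-CD11b- arrays and 6.22, 7.21 and 6.65 on the mφ arrays. CD103+CD11b- DCs and mφ were the low populations, below every array of the other 3. The difference between CD103+CD11b+ and CD103+CD11b- DCs was 1.09 ± 0.11 (2.13-fold, adjusted p = 4.84e-05). In CD103-CD11b+ DCs it was 0.62, adjusted p = 0.00298, under the limit on size. *Tnfrsf13b* encodes TACI, which binds BAFF and APRIL. It differed from CD103+CD11b- DCs by 0.71 (adjusted p = 4.37e-05) and 0.77 (adjusted p = 2.38e-05) in the CD11b+ subsets, short of the limit.

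**Figure D2:**
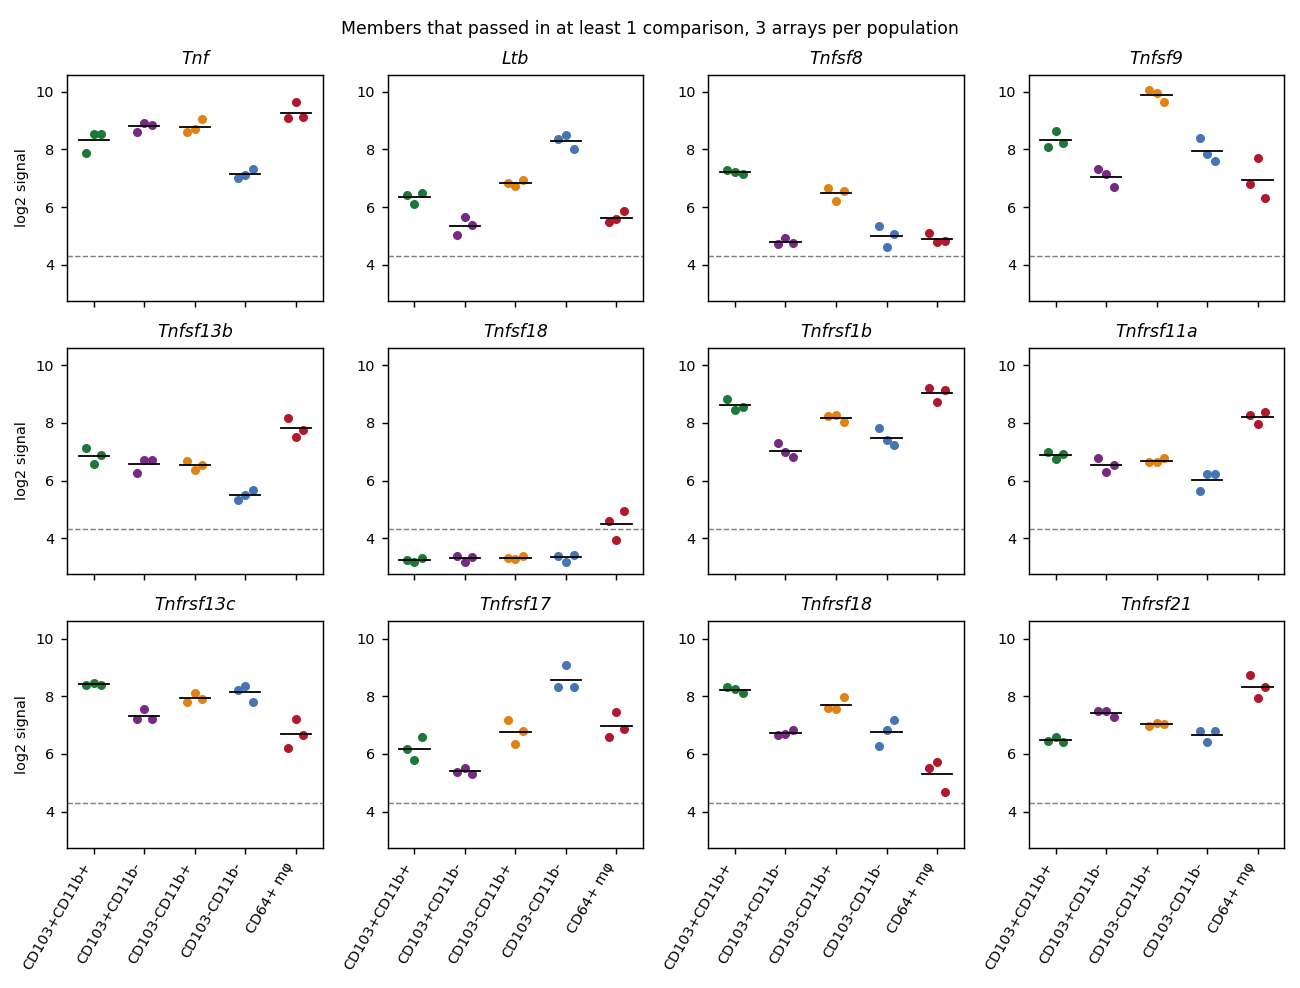
Log2 signals of the 12 members that passed in at least 1 comparison, with 1 dot per array, the mean of 3 arrays as a bar and the background of 4.30 as a dashed line. *Tnfsf8* and *Tnfsf9* are high in the CD11b+ subsets, *Ltb* and *Tnfrsf17* in CD103-CD11b- DCs, and *Tnf*, *Tnfsf13b*, *Tnfrsf11a* and *Tnfrsf21* in mφ.

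The arrays also show how mφ differed from DCs, with mφ set against the mean of the 4 DC subsets. Of 39 members, 6 were higher in mφ (*Tnf*, *Tnfsf13b*, *Tnfsf18*, *Tnfrsf1b*, *Tnfrsf11a* and *Tnfrsf21*) and 4 lower (*Ltb*, *Tnfsf9*, *Tnfrsf13c* and *Tnfrsf18*). Of all genes, 3.38% passed as higher and 2.19% as lower. The median absolute difference was 0.19 over members and 0.12 over all genes. Without the second mφ array, 9 of these 10 passed and *Tnf* did not. The differences were then 1.60 for *Tnfsf13b*, 1.47 for *Tnfsf18* (with DC arrays under background), 1.36 for *Tnfrsf1b*, 1.79 for *Tnfrsf11a*, 1.63 for *Tnfrsf21*, -1.04 for *Ltb*, -1.74 for *Tnfsf9*, -1.52 for *Tnfrsf13c* and -2.26 for *Tnfrsf18*.

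Markers of other cells moved in this comparison as well. Of 20 gut epithelium markers, 2 were higher in mφ (*Fabp1* and *Fabp2*) and 5 lower (*Anpep*, *Cdh1*, *Defa24*, *Epcam* and *Lyz1*). Of these, *Cdh1* and *Epcam* are also genes that the study assigns to CD103+CD11b+ DCs. *Cd4* and *Cd3g* were higher among 11 T cell and innate lymphoid cell markers, *Cd79b* among 7 B cell markers and *Ccr2* among 6 of monocytes and neutrophils. The T cell and innate lymphoid cell list averaged 5.29 to 5.42 on mφ arrays and 4.27 to 5.29 on DC arrays, with *Gata3*, *Ncr1* and *Klrb1c* at or under background in mφ. The B cell list averaged 5.13 to 5.54 and 4.39 to 5.41, with *Ms4a1* and *Cr2* at or under background. Of the plasma cell markers *Prdm1* was higher and *Irf4* lower. The part of these cells in the mφ results was not tested.

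*Tnfrsf11a* encodes RANK, the receptor for RANK ligand that drives osteoclasts and is also found on DCs. The log2 signal was 8.29, 7.96 and 8.37 in mφ, and from 5.62 to 6.98 on all DC arrays. It was 3.18-fold higher in mφ without overlap (1.67 ± 0.13, adjusted p = 1.11e-07). *Tnfrsf21* encodes death receptor 6. On the log2 scale it measured 6.45, 6.57 and 6.42 on the CD103+CD11b+ arrays, 7.48, 7.48 and 7.27 on the CD103+CD11b- arrays, and 6.96, 7.08 and 7.05 on the CD103-CD11b+ arrays. The other arrays gave 6.79, 6.40 and 6.79 on the CD103-CD11b- arrays and 8.73, 7.94 and 8.33 on the mφ arrays. Every mφ array was above every DC array, at 2.71-fold on average (1.44 ± 0.13, adjusted p = 4.31e-07). Among DCs, *Tnfrsf21* was 1.91-fold lower in the CD103+CD11b+ than in the CD103+CD11b- subset, without overlap (-0.93 ± 0.09, adjusted p = 2.69e-05), short of the limit on size. Without the third CD103+CD11b- array that difference was -1.003 and passed. *Tnfrsf1b* was 2.30-fold higher in mφ (1.20 ± 0.13, adjusted p = 6.12e-06), although the second mφ array, at 8.72, lay below the first CD103+CD11b+ array, at 8.82.

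*Tnfsf13b* encodes BAFF. Single arrays gave log2 signals of 7.12, 6.56 and 6.90 on the CD103+CD11b+ arrays, 6.26, 6.72 and 6.70 on the CD103+CD11b- arrays, and 6.69, 6.37 and 6.53 on the CD103-CD11b+ arrays. They were 5.33, 5.50 and 5.66 on the CD103-CD11b- arrays and 8.17, 7.51 and 7.74 on the mφ arrays. All mφ arrays were above all DC arrays and all CD103-CD11b- arrays below all others. The difference between mφ and the DC mean was 1.45 ± 0.14 (2.72-fold, adjusted p = 1.93e-06). *Tnfsf18* encodes the ligand of GITR. On mφ arrays it was at 4.60, 3.93 and 4.95, and on DC arrays from 3.17 to 3.43, under background. The second mφ array was under background too. With background as the bound for DCs, *Tnfsf18* was at least 1.14-fold higher in mφ (means of 4.49 and 3.30, adjusted p = 1.2e-05). The measured difference was 1.19, and without the third mφ array it was 0.97 and did not pass. Its receptor *Tnfrsf18* was 4.16-fold lower in mφ (-2.06 ± 0.19, adjusted p = 6.7e-07).

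*Tnf* encodes TNF, the cytokine that gives the family its name. Its log2 signals were 7.87, 8.55 and 8.55 on the CD103+CD11b+ arrays, 8.62, 8.91 and 8.86 on the CD103+CD11b- arrays, and 8.61, 8.72 and 9.04 on the CD103-CD11b+ arrays. In the remaining populations it was 7.03, 7.13 and 7.34 on the CD103-CD11b- arrays and 9.08, 9.64 and 9.12 on the mφ arrays. The mφ arrays were above every DC array by a narrow margin, and CD103-CD11b- arrays were below every other array. Mean *Tnf* signals were 9.28 for mφ, 7.16 for double-negative DCs and 8.33 to 8.80 for the remaining DC subsets. The double-negative subset thus pulls down the DC mean, and the higher call of mφ rests in part on it. A comparison of mφ with the remaining subsets alone was not tested. The difference of mφ from the mean of all 4 DC subsets was 1.01 ± 0.15 (2.01-fold, adjusted p = 0.000122). It lies at the limit on size, and leaving out any of 6 arrays in turn put it under 1, with the lowest value, 0.83, without the second mφ array. Those arrays were that one, replicate 1 of each of the 4 DC subsets and replicate 2 of CD103-CD11b+ DCs. Among the other 3 DC subsets no difference in *Tnf* passed. It was -0.47 (95% interval -0.87 to -0.07, adjusted p = 0.129) between the CD103+CD11b+ and CD103+CD11b- subsets, and -0.01 (95% interval -0.41 to 0.39, adjusted p = 0.989) between CD103-CD11b+ and CD103+CD11b- DCs.

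The members that were lower in mφ than in the DC mean had unequal DC subsets. *Tnfrsf13c* was 2.40-fold lower (-1.26 ± 0.16, adjusted p = 2.17e-05), with every mφ array below every DC array, by a narrow margin from CD103+CD11b- DCs. *Tnfsf9* was 2.57-fold lower (-1.36 ± 0.23, adjusted p = 0.000412), while its mφ arrays overlapped those of CD103+CD11b- and CD103-CD11b- DCs. *Ltb* was 2.10-fold lower (-1.07 ± 0.13, adjusted p = 1.69e-05), while its mφ arrays overlapped those of CD103+CD11b- DCs. The difference was -0.98 and did not pass without the first mφ array. Its mean of 5.64 for mφ was above the 5.36 of CD103+CD11b- DCs. Double-negative DCs, at 8.29, raise the DC mean, against 6.34 and 6.84 for the subsets that express CD11b. The lower call of *Ltb* rests in part on the double-negative subset, and a comparison of mφ without that subset was not tested.

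**Figure D3:**
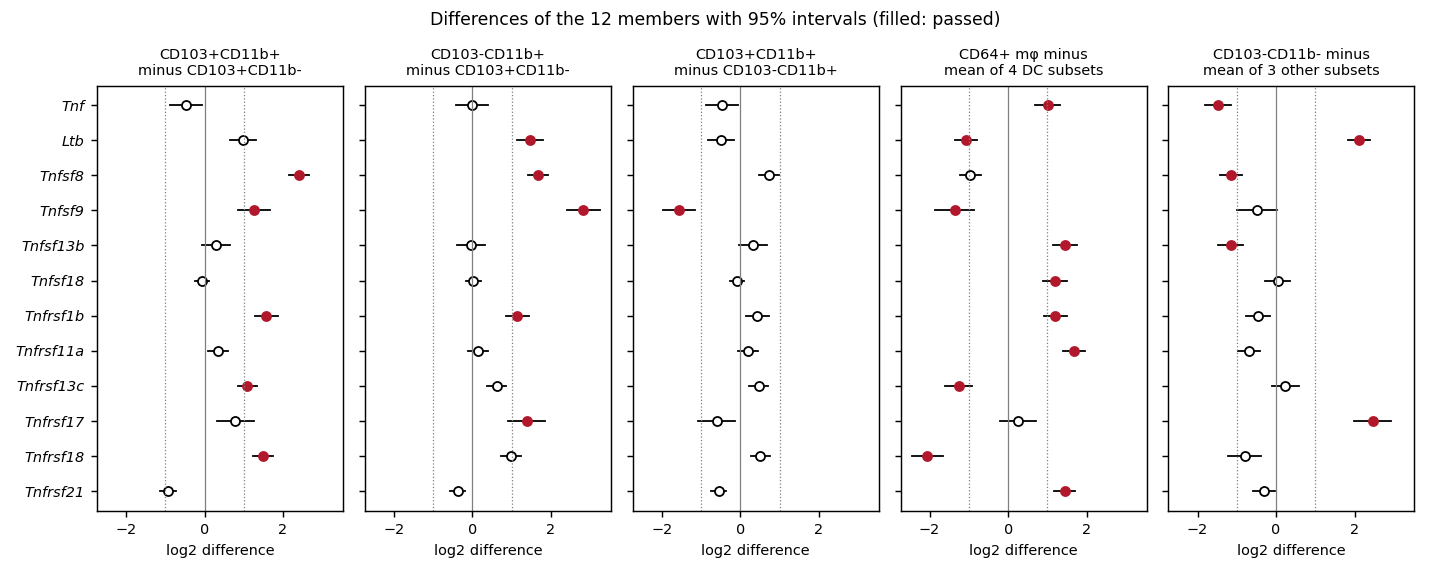
Log2 differences of the same 12 members in the 5 comparisons, with 95% intervals from limma as lines, filled dots for those that passed, and dotted lines at a difference of 1 in either direction. The first and second panels share the CD103+CD11b- arrays, and in both of them every filled dot is on the right.

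CD103-CD11b- DCs are a small and mixed subset, and were set against the mean of the other 3 DC subsets. In them *Ltb* and *Tnfrsf17* were higher and *Tnf*, *Tnfsf8* and *Tnfsf13b* lower. These were 2 and 3 of 39 members, against 0.717% and 0.301% of all genes, with a median difference of -0.07 over members and -0.01 over all genes. *Ltb* encodes lymphotoxin β, which anchors lymphotoxin to the membrane and acts through the receptor of *Ltbr*. The log2 signal was 6.43, 6.11 and 6.48 on the CD103+CD11b+ arrays, 5.05, 5.66 and 5.38 on the CD103+CD11b- arrays, and 6.84, 6.73 and 6.94 on the CD103-CD11b+ arrays. The other arrays gave 8.36, 8.51 and 8.003 on the CD103-CD11b- arrays and 5.48, 5.59 and 5.86 on the mφ arrays. CD103-CD11b- arrays were above all others, by 4.32-fold on average over the other DCs (2.11 ± 0.14, adjusted p = 3.57e-07). CD103-CD11b+ DCs came next, at 2.78-fold over CD103+CD11b- DCs (1.48 ± 0.15, adjusted p = 5.22e-05), and CD103+CD11b+ DCs were at 0.98 ± 0.15 over them (1.97-fold, adjusted p = 0.00106), short of the limit on size. That last difference was 1.10 and passed without CD103+CD11b+ replicate 2, and 1.13 without CD103+CD11b- replicate 2.

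*Tnfrsf17* encodes BCMA, the receptor through which APRIL keeps plasma cells alive. On the log2 scale it measured 6.16, 5.79 and 6.58 on the CD103+CD11b+ arrays, 5.37, 5.50 and 5.31 on the CD103+CD11b- arrays, and 7.16, 6.36 and 6.81 on the CD103-CD11b+ arrays. They were 8.32, 9.09 and 8.31 on the CD103-CD11b- arrays and 6.58, 7.47 and 6.87 on the mφ arrays. It was 5.50-fold higher in CD103-CD11b- than in the other DCs, without overlap (2.46 ± 0.22, adjusted p = 9.72e-06), and 2.61-fold higher in CD103-CD11b+ than in CD103+CD11b- DCs (1.38 ± 0.21, adjusted p = 0.00102). Without the second CD103-CD11b- array, at 9.09 its highest, the first of these was 2.20 (adjusted p = 0.000126). On the other side, *Tnf* was 2.78-fold lower in CD103-CD11b- DCs (-1.47 ± 0.16, adjusted p = 4.22e-05) and *Tnfsf13b* 2.23-fold lower (-1.15 ± 0.15, adjusted p = 0.000224), both without overlap. Without the second CD103-CD11b- array these were -1.46 and -1.15, and the difference of *Ltb* was 2.002, and all 3 passed. *Tnfsf8* was 2.21-fold lower (-1.15 ± 0.13, adjusted p = 7.59e-05), but its arrays overlapped those of CD103+CD11b- DCs. Its mean of 5.01 was above the 4.80 of CD103+CD11b- DCs. The lower call rests on the CD11b+ subsets, at 7.21 with CD103 and 6.47 without. Without the second CD103-CD11b- array the difference was -0.95 and did not pass.

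Genes of other cell types moved with these members. Of 7 plasma cell markers, *Mzb1*, *Sdc1*, *Derl3* and *Prdm1* (4) passed as higher in CD103-CD11b- DCs, as did 2 of 7 B cell markers (*Cd79a* and *Cd79b*). So did 4 of 6 plasmacytoid DC markers (*Siglech*, *Tcf4*, *Ccr9* and *Ly6d*) and 3 of 11 T cell and innate lymphoid cell markers (*Cd2*, *Cd8b1* and *Thy1*). The study also counts *Ccr9* among its genes of CD103+CD11b- DCs and *Mzb1* among those of CD103-CD11b+ DCs. The plasma cell list averaged 9.16 to 9.96 on CD103-CD11b- arrays, 8.19 to 8.50 on CD103+CD11b+ arrays, 6.99 to 7.23 on CD103+CD11b- arrays and 8.30 to 8.93 on CD103-CD11b+ arrays. Its genes *Irf4* and *Prdm1* were also at 8.70 to 9.501 and 7.25 to 7.67 on the arrays of the CD11b+ subsets, against 5.79 to 6.35 and 4.6995 to 5.26 in CD103+CD11b- DCs, and *Prdm1* in CD103-CD11b- DCs overlapped with the CD11b+ subsets. The other 5 genes averaged 9.57 to 10.43, 8.05 to 8.49, 7.69 to 7.80 and 8.40 to 9.23 in the order of the list. The B cell list averaged 5.27 to 5.41, 4.52 to 4.79, 4.39 to 4.52 and 4.80 to 5.14 likewise, and the plasmacytoid DC list 7.92 to 8.18, 6.39 to 6.65, 6.54 to 6.68 and 6.69 to 7.20. The T cell and innate lymphoid cell list averaged 5.16 to 5.29 on CD103-CD11b- arrays and at most 5.02 on the other DC arrays. The B cell genes *Ms4a1*, *Cr2* and *Fcer2a* and the lymphoid genes *Cd3d*, *Gata3*, *Ncr1* and *Klrb1c* were at or under background in CD103-CD11b- DCs. Of 7 cDC1 markers 4 passed as higher, and of 6 cDC2 markers 2 as lower. The cDC1 list averaged 8.26 to 8.72, 6.56 to 6.93, 10.08 to 10.34 and 6.64 to 6.71 in the same order of subsets. The mφ list averaged 6.97 on the first CD103-CD11b- array, against 5.73 and 5.95 on the others. Without that first array, 5 members passed. The array with the most *Tnfrsf17* was also the one with the most *Mzb1* (11.30) and *Sdc1* (8.41), and likewise within mφ. Some of these markers also moved between CD103-CD11b+ and CD103+CD11b- DCs, where *Ltb* and *Tnfrsf17* passed too. There 3 of 7 plasma cell and 2 of 7 B cell markers passed as higher in CD103-CD11b+ DCs, and 0 of either as lower. Of 6 plasmacytoid DC markers, 1 passed as higher and 1 as lower. The part of plasma cells, B cells and the other cell types in the signals of *Ltb*, *Tnfrsf17*, *Tnfrsf13b* and *Tnfrsf13c* was not tested.

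**Figure D4:**
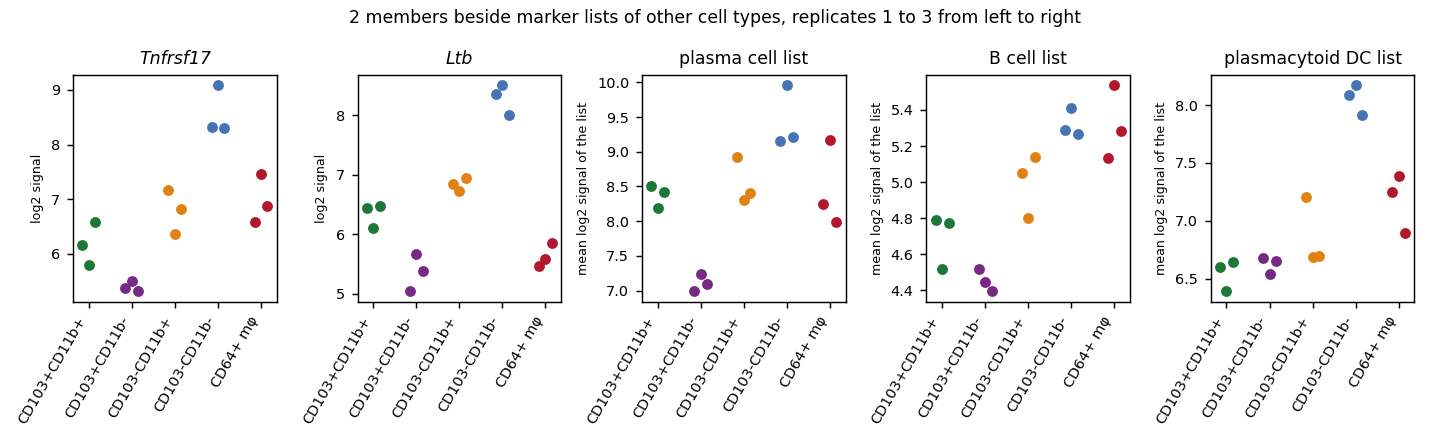
Log2 signals of *Tnfrsf17* and *Ltb* beside the mean log2 signals of the plasma cell, B cell and plasmacytoid DC marker lists, with 1 dot per array and the replicates of a population from left to right; each panel has its own axis, which does not start at 0. In *Tnfrsf17* and the plasma cell list the second array is the highest of both CD103-CD11b- DCs and mφ.

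With 4 DC subsets, the difference between CD103+ and CD103- cells can be asked with and without CD11b, a comparison added after the values were seen. It differed for 4 members: *Ltb*, *Tnf*, *Tnfrsf17* and *Tnfrsf21*. The CD103 difference was the higher one with CD11b for 2 of them, against 1.08% of all genes, and the lower one for 2, against 0.893%. For *Ltb*, CD103+ cells were lower by 0.50 among CD11b+ and by 2.93 among CD11b- DCs (log2 differences of -0.50 and -2.93). For *Tnfrsf17* these were -0.60 and -3.18. *Tnf* was at -0.47 with CD11b and 1.63 without, and *Tnfrsf21* at -0.55 and 0.75, so that the mean differences had opposite signs. Among CD11b+ DCs none of the 4 differences passed, so a change of direction is not shown. Those among CD11b- DCs were not tested by themselves. All 4 rest in part on the CD103-CD11b- arrays described above, and in part on those of the other DC subsets. For *Tnfrsf21*, CD103-CD11b- DCs averaged 6.66, between CD103+CD11b+ DCs at 6.48 and CD103+CD11b- DCs at 7.41.

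The best known members that passed nowhere are given as values. *Tnfrsf1a* encodes TNFR1, the death domain receptor of TNF. It was at 9.81, 9.73 and 9.51 on the CD103+CD11b+ arrays, 8.86, 9.05 and 8.83 on the CD103+CD11b- arrays, and 9.34, 9.53 and 9.54 on the CD103-CD11b+ arrays. It was at 8.95, 8.89 and 8.67 on the CD103-CD11b- arrays and 9.71, 9.71 and 10.003 on the mφ arrays. CD103+CD11b- and CD103-CD11b- DCs were the low populations, and the differences had adjusted p-values under the limit but sizes of 0.77 and 0.55 for the CD11b+ subsets over CD103+CD11b- DCs and 0.58 for mφ over DCs. *Ltbr*, the lymphotoxin β receptor, differed by 0.67 between mφ and DCs (adjusted p = 0.00247), with the second mφ array, at 7.59, within the range of DCs. Without that array the difference was 0.92. *Cd40*, through which T cells license antigen-presenting cells, was higher on every mφ array than on every DC array, by 0.65 (adjusted p = 8.95e-05). *Tnfrsf14*, which encodes the herpesvirus entry mediator, differed by 0.54 there (adjusted p = 0.00206), and by 0.48 without the second mφ array (adjusted p = 0.0147).

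The death ligands and several costimulatory ligands gave little signal. *Fasl*, *Cd70*, *Tnfsf4* (OX40 ligand), *Tnfsf14* (LIGHT) and *Lta* (lymphotoxin α) were under background in every population mean, and none passed in any comparison. *Tnfsf10*, which encodes TRAIL, was over background in mφ means only, at 4.68, 4.47 and 4.19 on single arrays, and differed by 0.30 from DCs (adjusted p = 0.045). *Fas*, the receptor of Fas ligand, was at 4.56, 5.55 and 4.56 in CD103-CD11b- DCs and from 4.06 to 4.46 in the other DCs, a difference of 0.62 (adjusted p = 0.0406), with the second CD103-CD11b- array well above the other 2. Without that array it was 0.29 (adjusted p = 0.189). Over the 27 members that passed nowhere, population means spanned 0.11 to 1.10, the widest that of *Tnfrsf13b*.

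Downstream of the receptors, a list of TRAF adaptors, kinases and NF-κB regulators had 41 measured genes. Against CD103+CD11b- DCs, 3 passed upwards in the CD103+ and 4 in the CD103- subset with CD11b, with 0 downwards in both, and between the CD11b+ subsets none passed. These are 3 and 4 of 41, against the 1.95% and 2.02% of all genes given above. *Tnfaip3*, which encodes the NF-κB inhibitor A20, was higher by 2.03 ± 0.32 (adjusted p = 0.00123) and 2.05 ± 0.32 (adjusted p = 0.00122) in the CD11b+ subsets. *Tnip3*, which encodes a partner of A20, was higher by 1.63 and 2.57, and *Map3k14*, the kinase NIK of the alternative NF-κB pathway, by 1.32 in CD103+CD11b+ DCs (adjusted p = 7.05e-05). *Nfkbia*, which encodes IκBα, and *Casp8*, the caspase of death receptors, were higher by 1.06 and 1.01 in CD103-CD11b+ DCs. In mφ 2 of 41 were higher and 2 lower, against 3.38% and 2.19% of all genes. The 2 higher ones are genes of necroptosis, *Mlkl* by 1.89 (adjusted p = 3.44e-07) and *Ripk3* by 1.08 (adjusted p = 0.000325), and *Traf1* and *Tnip3* were lower, *Traf1* by 4.66-fold (-2.22 ± 0.12, adjusted p = 1.31e-09). In CD103-CD11b- DCs, *Tnip3* was the 1 of 41 that passed, at -1.26 (adjusted p = 0.00298), against 0.301% of all genes as lower. Its arrays there, at 5.53 to 5.77, overlapped those of CD103+CD11b- DCs (5.32 to 5.65) and of mφ (5.13 to 5.93). Only the CD11b+ subsets stood apart, at 6.65 to 8.22, and both lower calls of *Tnip3* rest on them. Of 6 family genes outside the symbol rule (*Cd40lg*, *Eda*, *Edar*, *Edaradd*, *Ngfr* and *Relt*), none passed in any comparison.

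Many family genes lie beside each other in the genome. Among protein-coding genes of the RefSeq table, 11 neighbouring pairs had both genes measured. In 7 pairs 1 gene passed in some comparison and the other in none, in 3 pairs none passed, and in 1 pair, *Ltb* and *Tnf*, both did. The third gene of that cluster, *Lta*, was under background throughout. The differences of *Ltb* and *Tnf* had opposite signs in mφ and in CD103-CD11b- DCs. These comparisons share the CD103-CD11b- arrays, where *Ltb* was highest and *Tnf* lowest, so they are not separate observations. *Tnfsf8* passed beside *Tnfsf15*, *Tnfrsf18* beside *Tnfrsf4*, *Tnfrsf1b* beside *Tnfrsf8* and *Tnfsf9* beside *Cd70*, none of which did.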

How the data were processed

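Members and gene lists were chosen with earlier results of these data known. The authors processed the scans of 15 whole-transcript mouse arrays with RMA, and the deposited values are log2 signals, background-corrected and quantile-normalized, which makes arrays alike and hides any difference in total RNA. Genes were taken from probesets of 1 symbol, and the probeset with the highest mean stood for a gene; each member had 1. No filter on low signals was applied. Differences came from limma 3.58.1 (R 4.3.3). Fits among the 3 DC subsets that express CD103 or CD11b used their 9 arrays, and those for mφ, for CD103-CD11b- DCs and for the interaction all 15. A gene passed at an adjusted p under 0.01 with a log2 difference over 1. The limma step was tested on simulated arrays with independent noise and added differences beyond the limit on size. This checks the code and not the results given here. Members were named if they passed anywhere or were on a fixed list of well-known ones; *Tnfsf13* of that list has no value. Pathway genes were named if they passed. Alternatives were the probeset rule, median centring, cyclic loess, leaving out dim genes, other variance models, other limits, treat, the methods' t-test, the replicate number as a block, all 15 arrays in each fit and each array left out. The number of arrays limits the precision. The arrays' build is not given in the sources used here, so only RefSeq promoters carry coordinates. Figures used Python 3.11.15 and matplotlib 3.10.9.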

Additional observations from a re-analysis of the deposited data

Results flagged for a closer look

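The difference between CD103+ and CD103- DCs was itself different with and without CD11b for 4 members, by a limma interaction term over 15 arrays with adjusted p-values over all genes. The interaction, as the CD103 difference among CD11b+ DCs minus that among CD11b- DCs, was 2.43 ± 0.24 for *Ltb* (SE, adjusted p = 2.17e-05), 2.58 ± 0.38 for *Tnfrsf17* (adjusted p = 0.000771), -2.10 ± 0.27 for *Tnf* (adjusted p = 0.00028) and -1.30 ± 0.22 for *Tnfrsf21* (adjusted p = 0.00275). Without the second CD103-CD11b- array, the one with the highest plasma cell list, they were 2.32, 2.32, -2.08 and -1.17, and all 4 passed. With 3 arrays a population, single arrays were not tested as outliers.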

How the results depend on the processing

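With 3 arrays per population, differences near 1 on the log2 scale change sides of the limit on size easily. Leaving out each array in turn gave 5 to 6 passing members in the comparison of CD103+CD11b+ with CD103+CD11b- DCs (5 in the text), 5 to 6 for CD103-CD11b+ DCs (5), 1 between the CD11b+ subsets (1), 9 to 11 for mφ (10), 4 to 5 for CD103-CD11b- DCs (5) and 4 to 6 in the interaction (4), and no member's difference with an adjusted p under 0.01 changed sign under any alternative. Between the CD11b+ subsets, 107 of all genes passed, but 66 without CD103+CD11b+ replicate 1 and 59 without CD103-CD11b+ replicate 3. With treat, which tests against a difference of 1 at an adjusted p under 0.05, 2, 2, 0, 2, 2 and 1 members passed in the same order, and 264, 287, 15, 609, 29 and 65 of all genes did, against 653, 662, 107, 1110, 203 and 393. With the methods' t-test on adjusted values, 0 members passed between the CD11b+ subsets (1 at an unadjusted p under 0.05) and 6 in mφ, where it takes the 4 DC subsets as 1 group, and over all genes 1 passed between the CD11b+ subsets and 95 in CD103-CD11b- DCs. With all 15 arrays in the fit, 0 members passed between the CD11b+ subsets. Beyond the stricter limit of treat, the cause of these changes was not tested. The interaction, its alternatives and the shorter plasma cell list were chosen after seeing the data. The counts of members under the other alternatives were within 1.5 times those in the text. Over single members and settings other than leaving out an array, 492 of 530 values kept their side of the limits, 36 lost it and 2 gained it. The sources do not say what a replicate number marks. After removing population means, same-number arrays had a mean correlation of 0.12 and other arrays one of -0.06, and 40 of 60 best matches had the same number, a hint from the data that numbers mark something shared, but since 18 of 30 same-number pairs and not all were over 0.1 they were not used as pairs. With the replicate number as a block, 5, 5, 1, 10 and 5 members passed in the 5 comparisons and 6 in the interaction. Signal over background sets a further limit, since 10 members had no population mean above it.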
